A study of Homo sapiens with 6 samples.

Results

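The genes described here encode the 4 classic systems of axon guidance cues in PC-3 cells, human prostate cancer cells derived from a metastasis in bone: ephrins with their Eph receptors, semaphorins with plexins and neuropilins, slits with ROBO receptors, and netrins with UNC5 receptors. They were taken as every protein-coding row of the deposited count table whose symbol belongs to one of these 9 families, which gave 65 of 30651 genes, 30 receptors and 35 ligands. RNA of 6 libraries was sequenced, 3 named Ctrl and 3 named after MTA1, a protein of the NuRD complex, which remodels chromatin and removes acetyl groups from histones. The Ctrl data columns carry the prefix NC and those of the MTA1 group the prefix shMTA1, where sh commonly stands for short hairpin RNA. All cells were PC-3 grown in DMEM/F12 with fetal bovine serum, and the labels name lentivirus, transfection and stable clone screening without saying which vector the Ctrl cells carried or how many hairpins or clones stood behind a group. The labels do not say that libraries of a group came from separate cultures, so p-values measure only how far these libraries spread, and that spread may be technical.

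Ephrins are ligands anchored in the membrane of a neighbouring cell, through a lipid anchor in the A class and a transmembrane segment in the B class, and they bind Eph receptor tyrosine kinases. Semaphorins are secreted (class 3) or membrane-bound (classes 4 to 7) and signal through plexins, with neuropilins as the binding partners that most class 3 members need. Slits bind ROBO receptors, and netrins bind DCC and the UNC5 family. All 4 systems act through small GTPases on the actin cytoskeleton, guide growing axons and blood vessels, and set the contact and migration of epithelial and tumour cells.

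The comparison asks which guidance genes change their expression when MTA1 is lowered. MTA1 itself fell from 40.0 ± 1.47 to 17.4 ± 0.660 CPM (counts per library size after TMM scaling, mean ± SD, n = 3, log2 fold change -1.21 ± 0.054 SE, edgeR adjusted p = 4.3e-13), so the MTA1 group is the one with less MTA1. Its level was 4.72, 5.08 and 5.08 FPKM in Ctrl replicates 1 to 3 and 2.24, 2.34 and 2.19 FPKM in the MTA1 libraries. The libraries held 29909172 to 33849262 counts, of which the 65 genes took 0.0743% to 0.0769% in Ctrl libraries and 0.0980% to 0.102% in MTA1 libraries. The epithelial keratins KRT8 and KRT18 were abundant, at a mean of 237 and 378 FPKM in Ctrl and 203 and 374 FPKM in the MTA1 group (FPKM is the authors' level per kilobase of gene and per sequencing depth), and KRT8 fell (log2 fold change -0.29) while KRT18 did not pass. The other epithelial-list genes rose, EPCAM by 0.55 and VIM, a mesenchymal filament gene that PC-3 cells express, by 0.41, and the list summed to 715.54 to 773.59 FPKM in Ctrl libraries and 732.04 to 805.23 FPKM in MTA1 libraries. Of the luminal markers KLK3, the gene of prostate-specific antigen, had 1 count in all 6 libraries and TMPRSS2 had 8. Of the endothelial markers none of 3 tested passed, with summed levels of 1.31 to 1.52 FPKM in the Ctrl libraries and 1.33 to 1.39 FPKM in those of the MTA1 group. Of the 4 neural markers SNAP25 was the only tested one and fell, with sums of 1.54 to 1.73 FPKM against 1.04 to 1.31 FPKM, and RBFOX3 had 2 counts in all. Of 5 tested fibroblast markers COL1A1 fell, with sums of 7.18 to 7.90 and 6.46 to 7.09 FPKM. The leukocyte marker PTPRC had 7 counts in all. Their part in the results was not tested. In bulk RNA, fewer cells with a transcript and less of it per cell cannot be told apart.

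Of the 65 genes, 39 had enough counts to be tested, 18 receptors and 21 ligands. In the MTA1 group 23 rose and 4 fell, and 12 did not pass. A gene passed where edgeR's quasi-likelihood test gave it an adjusted p below 0.05, with 15423 genes tested, and "rose" and "fell" are used of such genes only. By that rule 58.1% of all tested genes passed, 29.5% as higher and 28.6% as lower, against 59.0% higher and 10.3% lower of the 39. Of the protein-coding genes alone 61.4% passed, 31.6% as higher and 29.8% as lower. When a change of at least 1.5-fold was also asked for, 11 of the 39 were higher and 2 lower, against 9.91% and 9.65% of all tested genes (19.6% together) and 9.06% and 8.47% of protein-coding ones. The 39 had a median log2 fold change of 0.35, against 0.002 over all tested genes. Among the 22 with a mean of 5 CPM or more, 18 passed and 16 of them rose, against 69.8% and 35.5% of all genes at that level.

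**Figure D1:**
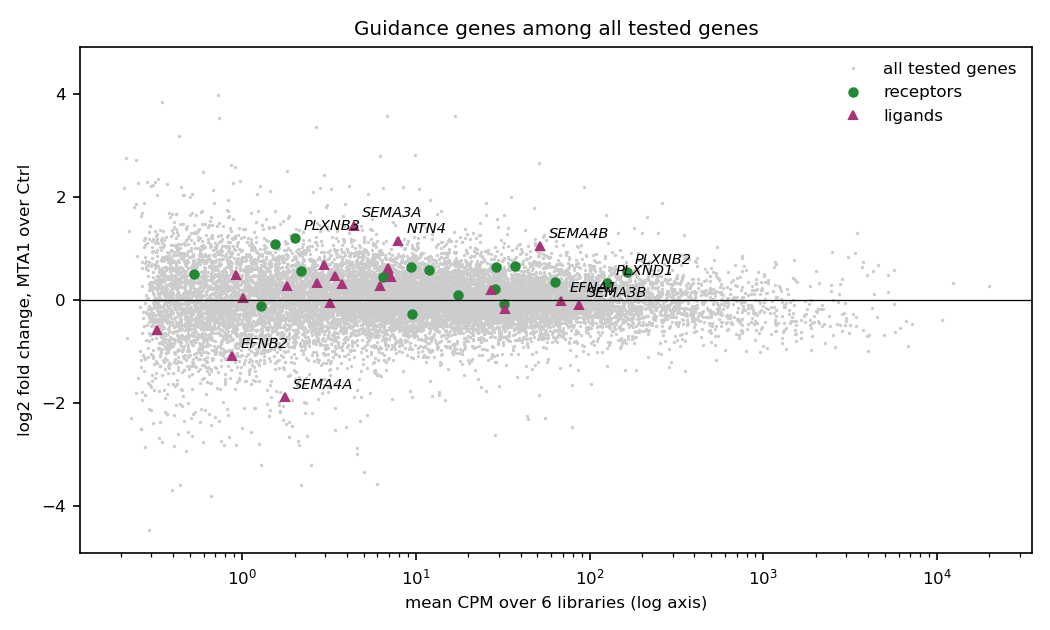
Log2 fold change of the MTA1 group over Ctrl against mean CPM (log axis) for 15423 tested genes (grey), the 18 receptors (circles) and the 21 ligands (triangles). Of the receptors 13 rose, with PLXNB3 highest at 1.21, and the ligands run from SEMA4A at -1.89 to SEMA3A at 1.45.

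Receptors that passed were higher with 1 exception, and most ligands that passed were higher too. Of 18 tested receptors, 13 rose and 1 fell, and their median log2 fold change was 0.51. Of 21 tested ligands, 10 rose and 3 fell, and their median was 0.28. That is 72.2% higher and 5.56% lower for receptors and 47.6% and 14.3% for ligands, against 29.5% and 28.6% of all tested genes. Of the ligands that fell, SEMA4A and EFNB2 were scarce, with means of 0.353 and 0.207 FPKM in Ctrl. The call of SEMA3F ended in several alternatives. At 1.5-fold or more, 6 receptors and 5 ligands were higher, and no receptor and 2 ligands were lower. Groups of libraries did not overlap for 14 receptors, 13 of them higher, and for 13 ligands, 9 of them higher, against 62.7% of all tested genes without overlap, 32.1% higher and 30.6% lower. Whether receptors and ligands differ in this respect was not tested.

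**Figure D2:**
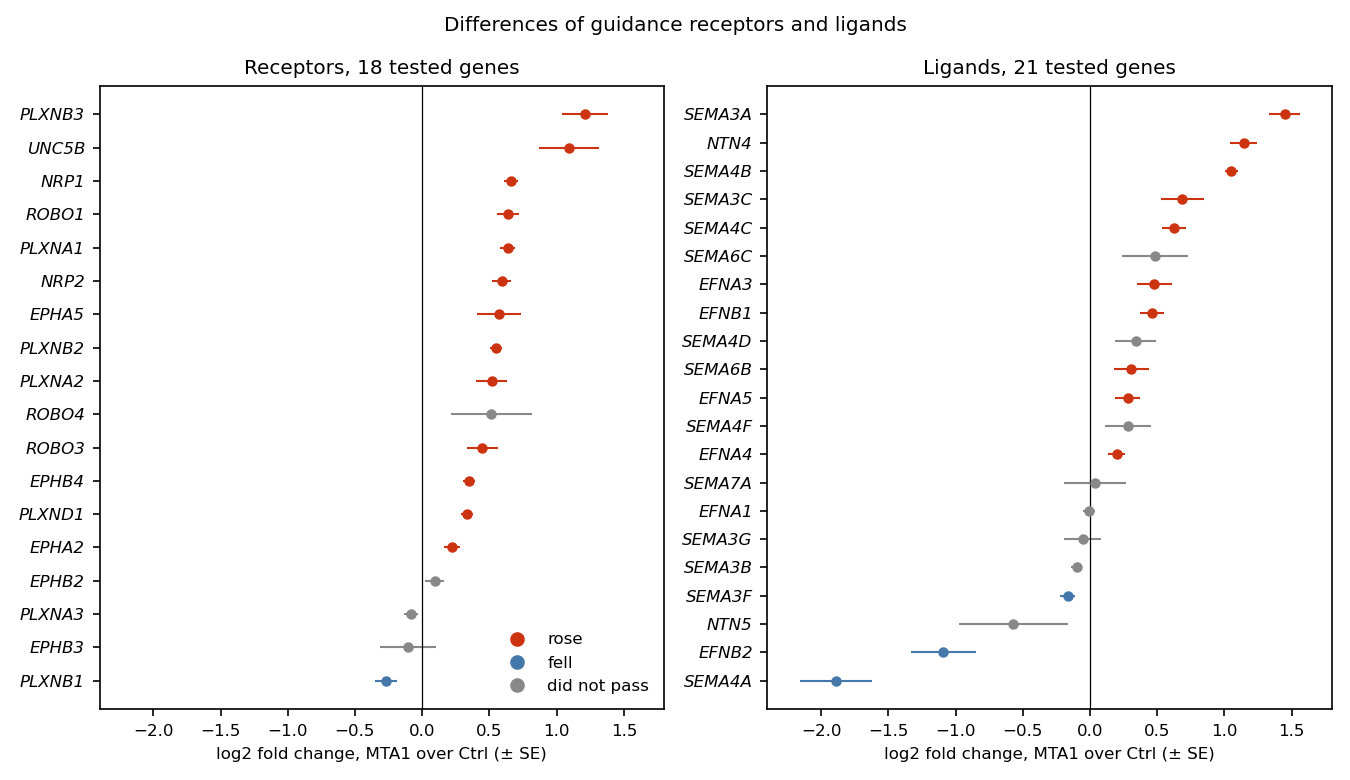
Log2 fold change of the MTA1 group over Ctrl with its standard error for each tested receptor (left) and ligand (right), sorted by size and coloured by whether the gene rose, fell or did not pass. Of the receptors 13 lie to the right as risen and PLXNB1 (-0.27) is the one that fell, while SEMA4A, EFNB2 and SEMA3F are the ligands that fell.

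Summed over members, receptor transcripts took 48.97, 51.83 and 49.53 FPKM in Ctrl replicates 1, 2 and 3 and 68.31, 68.15 and 72.14 FPKM in MTA1 replicates 1, 2 and 3. Ligand transcripts took 75.56, 79.36 and 76.52 FPKM in Ctrl and 88.36, 88.19 and 93.09 FPKM in the MTA1 group. Both sums were higher in every MTA1 library than in any Ctrl library. The mean of the receptor sum was 1.39 times and that of the ligand sum 1.17 times its Ctrl mean. These sums are not TMM-scaled. The median log2 fold change of all tested genes was itself 0.059 on log2(FPKM + 0.1), against 0.002 with TMM scaling. The ratio of ligand to receptor FPKM was 1.53 to 1.54 in the Ctrl libraries and 1.29 in each MTA1 library. A few genes carried these sums. PLXNB2 and PLXND1 made up 82.3% ± 0.686 of plexin FPKM in Ctrl, EPHB4 and EPHA2 88.9% ± 1.27 of Eph receptor FPKM, and EFNA1 and EFNA4 91.8% ± 0.0819 of ephrin FPKM. SEMA3B and SEMA3F made up 71.6% ± 0.325 of semaphorin FPKM in Ctrl and 57.8% ± 0.836 in the MTA1 group.

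**Figure D3:**
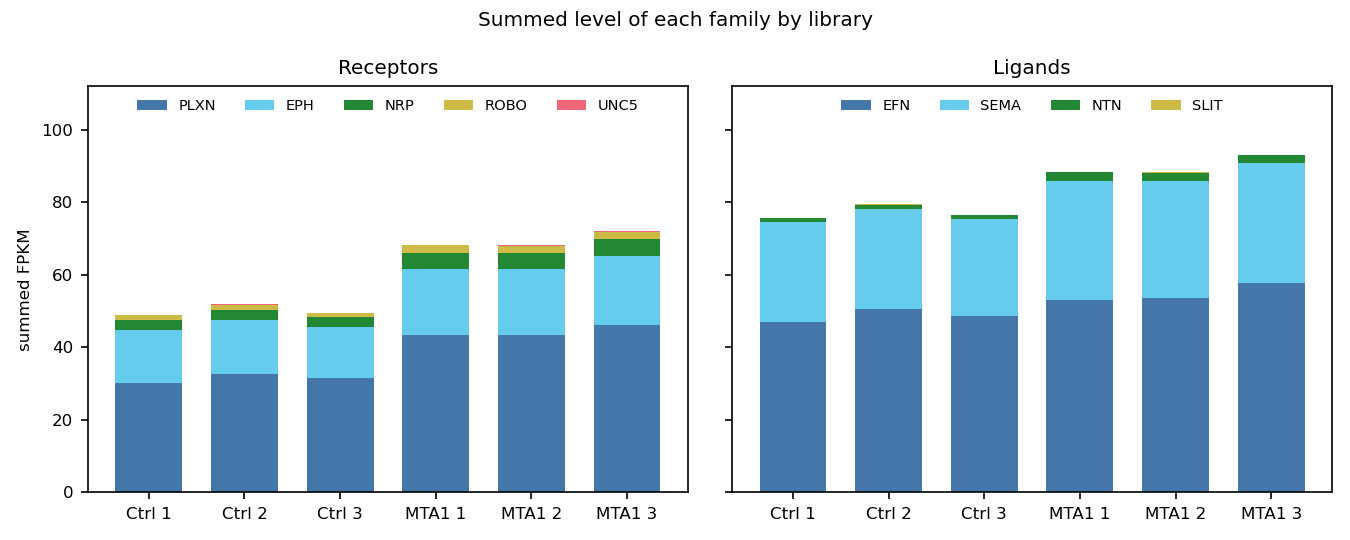
Summed FPKM of each receptor family (left) and ligand family (right) in each library, as stacked bars from 0. Receptor sums rise from 48.97 to 51.83 FPKM in Ctrl to 68.15 to 72.14 FPKM in the MTA1 group, most of it plexins, and ligand sums from 75.56 to 79.36 to between 88.19 and 93.09 FPKM.

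Plexins, the signalling receptors of semaphorins, were the most abundant receptors, and 5 of 7 tested rose. With the 1 that fell, 85.7% passed, against 58.1% of all tested genes, and 71.4% were higher, against 29.5%. PLXNB2, which binds class 4 semaphorins, stood at 14.9, 16.32 and 16.08 FPKM in the Ctrl libraries and at 23.69, 23.26 and 25.44 FPKM in the MTA1 libraries. Every MTA1 library was above every Ctrl library (log2 fold change 0.55 ± 0.044, edgeR adjusted p = 1.9e-09). PLXND1, a receptor of SEMA3E that is known from blood vessels, had 9.59, 10.57 and 9.97 FPKM in Ctrl and 13.03, 13.33 and 13.41 FPKM in the MTA1 group, again without overlap (0.33 ± 0.042, edgeR adjusted p = 9.3e-07). PLXNA1, a partner of neuropilins for class 3 semaphorins, went from 1.72 ± 0.0603 to 2.81 ± 0.164 FPKM (0.64 ± 0.055, edgeR adjusted p = 5.3e-09), and its relative PLXNA2 from 0.347 ± 0.0635 to 0.523 ± 0.0635 FPKM (0.52 ± 0.12).

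The class B plexins were split. PLXNB3, a receptor of SEMA5A, was scarce but had the largest rise of any receptor, from 0.17, 0.14 and 0.13 FPKM in Ctrl to 0.34, 0.35 and 0.39 FPKM in the MTA1 group (log2 fold change 1.21 ± 0.17, edgeR adjusted p = 4.3e-06). Its locus overlaps the coding gene SRPK3 on the same strand in GENCODE 29, which had 2 counts in all. PLXNB1, the receptor of SEMA4D, had 0.95, 0.92 and 0.89 FPKM in Ctrl and 0.80, 0.72 and 0.88 FPKM in the MTA1 group, each MTA1 library being below each Ctrl library. It was the one receptor that fell (-0.27 ± 0.081, edgeR adjusted p = 0.0083), a call that ended without MTA1 replicate 2 (edgeR adjusted p = 0.067) and on the FPKM scale (limma adjusted p = 0.12 with a pseudocount of 0.1). PLXNA3 stood at 2.42 ± 0.111 and 2.40 ± 0.138 FPKM and did not pass, with a log2 fold change between -0.20 and 0.03 at 95% confidence. It overlaps LAGE3 on the opposite strand, a gene that fell by 0.35 on the log2 scale. PLXNC1 and PLXNA4 had 7 and 1 counts in all and were not tested.

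Both neuropilins, the co-receptors that bind class 3 semaphorins and vascular endothelial growth factor, rose. NRP1 had 2.23, 2.14 and 2.10 FPKM in the Ctrl libraries and 3.40, 3.48 and 3.83 FPKM in the MTA1 libraries. Every MTA1 library was above every Ctrl library (log2 fold change 0.66 ± 0.054, edgeR adjusted p = 2.7e-09). NRP2 had 0.62, 0.59 and 0.56 FPKM in Ctrl and 0.97, 0.92 and 0.90 FPKM in the MTA1 group, also without overlap (0.59 ± 0.072, edgeR adjusted p = 6.7e-07).

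**Figure D4:**
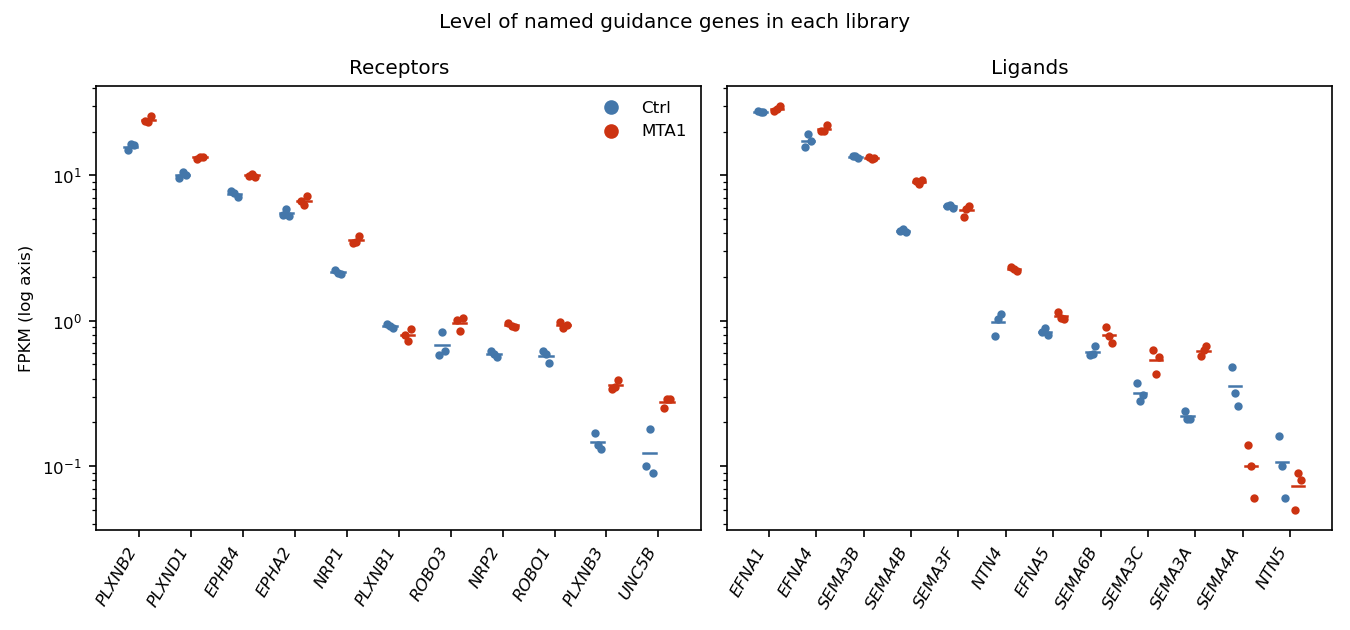
FPKM (log axis) of 11 receptors and 12 ligands in each library, with Ctrl and MTA1 points side by side and a bar at each group mean. PLXNB2 and EFNA1 lead the receptors and the ligands, EFNA1 and SEMA3B stay near 27 to 30 and 13 FPKM, and SEMA4B shifts from about 4 to about 9 FPKM.

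Class 3 semaphorins, the secreted ligands of the neuropilin and plexin A complexes, moved in both directions, with 2 of 5 tested rising and 1 falling. These shares, 40% higher and 20% lower, stood beside 29.5% and 28.6% of all tested genes. Together 60% passed, against 58.1% of all tested genes. SEMA3A, which repels axons through NRP1, had the largest rise of all 39 genes, from 0.24, 0.21 and 0.21 FPKM in Ctrl to 0.57, 0.63 and 0.67 FPKM in the MTA1 group. The groups did not overlap (2.73-fold, log2 fold change 1.45 ± 0.12, edgeR adjusted p = 2.2e-09). SEMA3C, which also acts through neuropilins, went from 0.320 ± 0.0458 to 0.540 ± 0.101 FPKM (0.69 ± 0.16, edgeR adjusted p = 0.0011). Of the neuropilins and class A plexins, NRP1, NRP2, PLXNA1 and PLXNA2 rose too, while PLXNA3 (-0.08) did not pass and PLXNA4 was not tested.

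The more abundant class 3 members had smaller differences. SEMA3B, a gene of the chromosome 3 region often lost in lung cancer, stood at 13.56, 13.49 and 13.15 FPKM in Ctrl and 13.43, 12.87 and 13.06 FPKM in the MTA1 group, with overlapping FPKM. On the CPM scale it went from 89.5 ± 1.56 to 83.7 ± 2.01, and every MTA1 library was below every Ctrl library. It still missed the threshold (log2 fold change -0.10 ± 0.042, edgeR adjusted p = 0.051). It passed as lower with DESeq2 size factors (edgeR adjusted p = 0.038), with a filter of 1 CPM (0.036), without MTA1 replicate 1 (0.046) and with the replicate number as a block (0.036). SEMA3F, a ligand of NRP2 whose gene lies 3 coding genes away from SEMA3B in RefSeq order, fell from 34.3 ± 0.762 to 30.5 ± 2.47 CPM (-0.17 ± 0.058, edgeR adjusted p = 0.018). That call ended without MTA1 replicate 1 (edgeR adjusted p = 0.14), with scaling by library size only (0.16) and on the FPKM scale (limma adjusted p = 0.23). SEMA3G stood at 0.553 ± 0.0404 and 0.557 ± 0.0751 FPKM and did not pass. SEMA3D and SEMA3E, next to SEMA3A on chromosome 7, had 5 and 7 counts in all and were not tested.

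Class 4 semaphorins, which are anchored in the membrane and bind class B plexins, held the gene with the smallest p and the one with the largest fall, and 2 of 5 tested rose and 1 fell. In class 4 too, 60% of the tested genes passed, 40% as higher and 20% as lower. Over all tested genes these shares were 58.1%, 29.5% and 28.6%. SEMA4B had the smallest p of the 39 genes. It had 4.11, 4.29 and 4.06 FPKM in Ctrl and 9.12, 8.74 and 9.22 FPKM in the MTA1 group, with no overlap (2.07-fold, log2 fold change 1.05 ± 0.046, edgeR adjusted p = 3.1e-13). SEMA4C, a ligand of PLXNB2, rose from 5.39 ± 0.438 to 8.32 ± 0.428 CPM (0.63 ± 0.091, edgeR adjusted p = 7.2e-06). SEMA4A, a ligand with roles in immune cells and the retina, fell from 117, 82 and 66 counts in Ctrl to 32, 23 and 14 counts in the MTA1 group. Both groups were spread widely, but the highest MTA1 library was below the lowest Ctrl library (3.70-fold lower, -1.89 ± 0.27, edgeR adjusted p = 4.6e-06). SEMA4D (0.34 ± 0.15) and SEMA4F (0.28 ± 0.17) did not pass, and SEMA4D passed as higher without Ctrl replicate 2 (edgeR adjusted p = 0.023), without MTA1 replicate 1 (0.044), with scaling by library size only (0.030) and with the replicate number as a block (0.045). SEMA4G had 32 counts in all and was not tested.

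The starts of SEMA4B and SEMA4A are shown because these relatives moved in opposite directions. Each is the reference sequence of the 250 bases before the annotated start, from RefSeq on GRCh38.p14, read 5′ to 3′ along the gene, with each GC box (GGGCGG on either strand) in capitals. SEMA4B is at chr15:90201080-90201329 on the plus strand and SEMA4A at chr1:156149694-156149943 on the plus strand.
SEMA4B: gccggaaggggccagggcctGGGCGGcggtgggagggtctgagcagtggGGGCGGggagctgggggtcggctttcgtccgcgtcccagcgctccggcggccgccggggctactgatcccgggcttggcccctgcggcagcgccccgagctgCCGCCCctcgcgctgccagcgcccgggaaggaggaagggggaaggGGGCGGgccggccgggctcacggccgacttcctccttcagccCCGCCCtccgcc
SEMA4A: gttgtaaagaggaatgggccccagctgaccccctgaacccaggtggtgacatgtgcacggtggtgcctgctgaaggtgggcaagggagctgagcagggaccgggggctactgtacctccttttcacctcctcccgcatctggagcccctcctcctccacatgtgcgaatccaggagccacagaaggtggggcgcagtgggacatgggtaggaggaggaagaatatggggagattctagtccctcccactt
The SEMA4B window holds 5 GC boxes and 29 CpG dinucleotides at a G and C content of 79.2%, the SEMA4A window no GC box and 5 CpG at 60.4%. A GC box stood in 29 of 35 tested members with a window in the table, in 67.4% of 10561 windows of tested genes and in 42.3% of all 27305 windows. Of members that rose, 16 of 19 windows held a GC box. The box stood in 2 of 4 windows of members that fell and in 11 of 12 of members that did not pass. Whether GC boxes go with the direction of change was not tested. The hypoxia-response core ACGTG, on either strand, stood in 3 of the 35 and in 23.4% of windows of tested genes. It stood in 0 of 19 windows of members that rose, 0 of 4 of members that fell and 3 of 12 of members that did not pass. The windows of SEMA3A, NRP1, SEMA6B and UNC5B were not analysed here.

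The remaining semaphorins were scarce. SEMA6B, a ligand of class A plexins, had 0.58, 0.59 and 0.67 FPKM in Ctrl and 0.91, 0.78 and 0.70 FPKM in the MTA1 group, and its CPM overlapped between groups. It passed narrowly as higher (log2 fold change 0.31 ± 0.13, edgeR adjusted p = 0.046). The call ended without Ctrl replicate 1 (edgeR adjusted p = 0.12), Ctrl replicate 2 (0.14), MTA1 replicate 1 (0.23) or MTA1 replicate 2 (0.076), with DESeq2 size factors (0.051) and in DESeq2's Wald test (adjusted p = 0.12). SEMA6C (0.48 ± 0.25) did not pass but did without MTA1 replicate 1 (edgeR adjusted p = 0.044), and SEMA7A, which binds PLXNC1, stood at 0.227 ± 0.0451 and 0.243 ± 0.0379 FPKM. SEMA5A, SEMA5B, SEMA6A and SEMA6D had 7 to 47 counts in all and were not tested.

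Of 5 tested Eph receptors 3 rose, by less than 1.5-fold. None fell, and the 60% that passed stood beside 58.1% of all tested genes, of which 29.5% were higher. EPHB4, the receptor of ephrin-B2, was the most abundant of them, with 7.76, 7.56 and 7.13 FPKM in the Ctrl libraries and 9.88, 10.28 and 9.78 FPKM in the MTA1 libraries. The groups did not overlap (log2 fold change 0.35 ± 0.047, edgeR adjusted p = 2.6e-06). SLC12A9, on the opposite strand in GENCODE 29, had 1461 counts against 12004 for EPHB4 and a log2 fold change of 0.44. EPHA2, the ephrin-A1 receptor often abundant in carcinomas, had 5.36, 5.83 and 5.21 FPKM in Ctrl and 6.66, 6.22 and 7.17 FPKM in the MTA1 group, a smaller difference but without overlap (0.22 ± 0.059, edgeR adjusted p = 0.0030). EPHA5 rose from 0.157 ± 0.00577 to 0.243 ± 0.0416 FPKM (0.57 ± 0.16), though 2 genes overlap it on the opposite strand in GENCODE 29, AC115223.1 (log2 fold change -0.36) and EPHA5-AS1 (-0.005), with 1272 and 212 counts against 414 for EPHA5. EPHB2 stood at 1.16 ± 0.104 and 1.30 ± 0.0781 FPKM and EPHB3 at 0.253 ± 0.0451 and 0.243 ± 0.0321 FPKM, and neither passed. EPHA1, EPHA3, EPHA7, EPHA8, EPHA10, EPHB1 and EPHB6 had 1 to 19 counts each in all 6 libraries and were not tested.

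Of the ephrins, 3 of 4 tested A class members rose and EFNA1 did not pass. In the B class 1 tested member rose and 1 fell. Of the 6 tested ephrins 66.7% were higher and 16.7% lower, against 29.5% and 28.6% of all tested genes. EFNA1, the ligand of EPHA2 and the most abundant of all 65 genes in FPKM, had 27.50, 27.38 and 27.33 FPKM in Ctrl and 27.48, 28.36 and 29.87 FPKM in the MTA1 group, with overlap. It did not pass (log2 fold change -0.01 ± 0.044), and the 95% interval of the difference ran from -0.10 to 0.08. In RefSeq order of coding genes on chromosome 1, EFNA3 lies next to EFNA1 and EFNA4 next to EFNA3, and both EFNA3 and EFNA4 rose. EFNA4 had 15.70, 19.14 and 17.17 FPKM in Ctrl and 20.27, 20.09 and 22.30 FPKM in the MTA1 group (0.20 ± 0.063, edgeR adjusted p = 0.011), and the call ended without Ctrl replicate 1 (edgeR adjusted p = 0.087). EFNA3 went from 1.26 ± 0.165 to 1.84 ± 0.0850 FPKM (0.48 ± 0.13, edgeR adjusted p = 0.0033). Both overlap the coding locus AL691442.1 on the same strand, which had 513 counts against 5146 for EFNA4 and 645 for EFNA3 and rose by 0.80 on the log2 scale, so their counts are uncertain. EFNA5 had 0.83, 0.89 and 0.80 FPKM in Ctrl and 1.15, 1.05 and 1.02 FPKM in the MTA1 group, without overlap (0.28 ± 0.093, edgeR adjusted p = 0.014). Its call ended without Ctrl replicate 3 (edgeR adjusted p = 0.060), without MTA1 replicate 1 (0.070) and in DESeq2's Wald test (adjusted p = 0.062).

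Ephrin-B1 and ephrin-B2, the transmembrane ligands that can also signal back into their own cell, moved in opposite directions. EFNB1 rose from 1.58 ± 0.0608 to 2.28 ± 0.196 FPKM (log2 fold change 0.46 ± 0.089, edgeR adjusted p = 0.00019). EFNB2 had 0.23, 0.21 and 0.18 FPKM in Ctrl and 0.10, 0.10 and 0.11 FPKM in the MTA1 group, from 34 to 41 and from 17 to 18 counts. All 3 MTA1 libraries were below all Ctrl libraries (2.13-fold lower, -1.09 ± 0.24, edgeR adjusted p = 0.00062). EFNB2 fell while its receptor EPHB4 rose, and per length the receptor was the more abundant transcript in both groups. EFNA2 and EFNB3, with 39 and 5 counts in all, were not tested.

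The starts of this ligand and receptor are printed for that contrast, with the same conventions. EFNB2 is at chr13:106535663-106535912 and EPHB4 at chr7:100827524-100827773, both on the minus strand of GRCh38.p14 in RefSeq.
EFNB2: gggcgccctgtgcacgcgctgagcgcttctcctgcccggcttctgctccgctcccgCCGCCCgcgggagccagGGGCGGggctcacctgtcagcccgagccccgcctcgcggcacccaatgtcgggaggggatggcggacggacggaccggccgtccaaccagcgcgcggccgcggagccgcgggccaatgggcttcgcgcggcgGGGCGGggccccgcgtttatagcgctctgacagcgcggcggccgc
EPHB4: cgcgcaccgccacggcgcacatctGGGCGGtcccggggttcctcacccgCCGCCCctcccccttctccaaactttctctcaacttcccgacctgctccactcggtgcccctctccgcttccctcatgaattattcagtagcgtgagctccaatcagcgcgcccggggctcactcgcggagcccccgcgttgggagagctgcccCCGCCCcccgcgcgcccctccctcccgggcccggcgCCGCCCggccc
The windows hold 3 and 4 GC boxes and 40 and 29 CpG, in this order, and only that of EFNB2 holds the TATA motif TATAAA, on the opposite strand, which stood in 5.48% of windows of tested genes.

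Of the netrin and UNC5 genes, NTN4 and UNC5B rose, NTN5 did not pass and the others were too scarce to test. NTN4, a netrin of basement membranes that binds laminin, had 0.79, 1.02 and 1.12 FPKM in Ctrl and 2.33, 2.27 and 2.18 FPKM in the MTA1 group. The groups did not overlap (2.21-fold, log2 fold change 1.14 ± 0.10, edgeR adjusted p = 6.7e-09). UNC5B, a netrin receptor known from blood vessels and from cell death without ligand, had 24, 47 and 24 counts in Ctrl and 59, 70 and 67 in the MTA1 group, without overlap (2.13-fold, 1.09 ± 0.22, edgeR adjusted p = 0.00029). NTN5 had 0.16, 0.10 and 0.06 FPKM in Ctrl and 0.05, 0.09 and 0.08 FPKM in the MTA1 group and did not pass (-0.57 ± 0.41). NTN1, the founding netrin, had 3 to 6 counts in the Ctrl libraries and 8 to 16 in the MTA1 libraries and was below the limit for testing. NTN3, UNC5C and UNC5D had at most 2 counts in all. DCC, the other netrin receptor named above, had no protein-coding row.

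Of 3 tested ROBO genes 2 rose, against 29.5% higher of all tested genes. ROBO1, a slit receptor, had 0.62, 0.59 and 0.51 FPKM in Ctrl and 0.98, 0.89 and 0.94 FPKM in the MTA1 group, without overlap (log2 fold change 0.64 ± 0.083, edgeR adjusted p = 1.6e-06). ROBO3 had 0.58, 0.83 and 0.62 FPKM in Ctrl and 1.01, 0.85 and 1.04 FPKM in the MTA1 group, and its CPM overlapped between groups, Ctrl replicate 2 being the highest of Ctrl (0.45 ± 0.12, edgeR adjusted p = 0.0026). ROBO4, an endothelial member that adjoins ROBO3 on chromosome 11, stood at 0.0600 ± 0.0200 and 0.0833 ± 0.00577 FPKM and did not pass (0.51 ± 0.30). SLIT2 had 7, 6 and 2 counts in Ctrl and 19, 17 and 8 in the MTA1 group, SLIT3 had 18 counts in all, SLIT1 and ROBO2 had 2 and 3, and none of these was tested.

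Genes known to work with these ligands and receptors moved in both directions. Of 79 listed partners, 78 had a row and 64 were tested: 14 were higher and 17 lower, and their median difference was 0.02 on the log2 scale. This share of 48.4% stood against 58.1% of all tested genes. By direction, 21.9% of the tested partners were higher and 26.6% lower, against 29.5% and 28.6% of all tested genes. Among other receptors and ligands, 2 rose and 2 fell of 6: the adhesion molecule L1CAM, a binding partner of NRP1, rose from 64.8 ± 1.36 to 102 ± 0.299 CPM (0.66 ± 0.041), FLRT1 rose (1.32 ± 0.33), and NRCAM (-0.68 ± 0.078) and FLRT2 (-0.49 ± 0.13) fell. Of 5 tested proteases that cut ephrins, semaphorins or their receptors, ADAM17 rose (0.74 ± 0.073), and MMP14 (0.22) and ADAM10 (0.08) did not pass.

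Intracellular partners moved in both directions, as did all tested genes (29.5% higher and 28.6% lower). Of the tested adaptors and kinases 50% passed, of the GTPases and their regulators 50% and of the cytoskeletal effectors 47.1%. All 3 shares were below the 58.1% of all tested genes. Of 14 tested adaptors and kinases 3 rose, among them the kinase ABL2 (0.49 ± 0.077), and 4 fell, among them the adaptor NCK2 (-0.83 ± 0.083) and the phosphatase genes INPPL1 (-0.24 ± 0.042) and ACP1 (-0.28 ± 0.049). Of 22 tested GTPases and their regulators 3 rose and 8 fell. RAC1, the GTPase of membrane ruffles, fell from 438 to 349 CPM (-0.33 ± 0.045), as did the exchange factors VAV3 (-0.43 ± 0.078) and KALRN (-0.79 ± 0.18), while ITSN2 rose (0.50 ± 0.12). Of 17 tested cytoskeletal effectors 5 rose and 3 fell. The collapsin response mediators, which relay SEMA3A signals to microtubules, split: DPYSL3 rose from 36.3 to 71.1 CPM (0.97 ± 0.047), DPYSL4 rose from 0.176 to 0.744 CPM (2.05 ± 0.39) and DPYSL2 fell from 81.7 to 53.8 CPM (-0.60 ± 0.056). MICAL3, an oxidase that acts on actin, rose (0.45 ± 0.061). The largest edgeR adjusted p of the genes that passed and are named in these paragraphs on partners was that of FLRT2, at 0.0025.

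**Figure D5:**
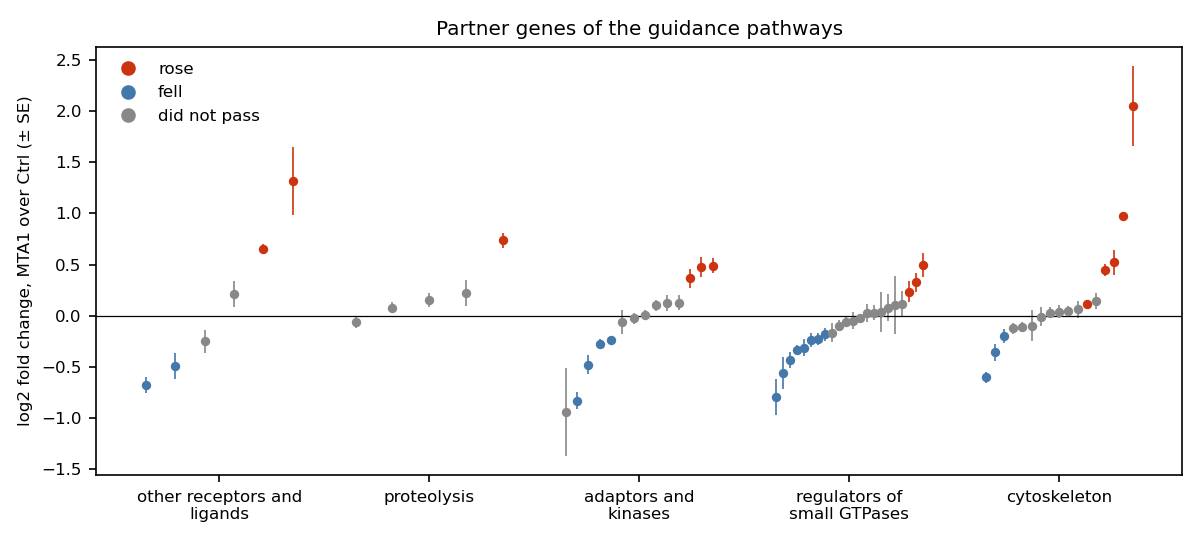
Log2 fold change of the MTA1 group over Ctrl with its standard error for the 64 tested partner genes in 5 groups, coloured by whether the gene rose, fell or did not pass. Values run from FES at -0.94, which did not pass, to DPYSL4 at 2.05.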

How the data were processed

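The authors deposited whole-number counts per gene and, for most of the same genes, FPKM values rounded to 2 decimals; per the file headers, each library has 1 column in both tables. Columns named shMTA1 were taken as the MTA1 samples. No label ties NC to Ctrl, so those columns were assigned by elimination, keeping their numbers. Per the labels' protocols the libraries were stranded total RNA, sequenced as paired reads. Aligner, counter, strand setting, genome build and annotation: not given in the sources used here. Genes that overlap another gene are uncertain. In GENCODE 29, 17 of the 39 tested members overlap one on the opposite strand. Apart from those of EPHA5, EPHB4, PLXNA3 and PLXNB3, these opposite-strand genes had no row or at most 11 counts in all. DESeq2 is listed in the submitters' processing notes, with no role given.

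R 4.3.3 and edgeR 4.0.16 were used on the counts: filterByExpr (15423 genes kept, 15228 removed), TMM scaling, then glmQLFit and glmQLFTest on group alone. P-values are 2-sided and Benjamini-Hochberg adjusted across the genes tested. What edgeR calls the biological coefficient of variation was 4.45%. Separate cultures are not stated, so this spread may be technical. CPM uses TMM-scaled library sizes. Standard errors and 95% intervals come from the same fit. Levels of different genes are compared in FPKM only. The scripts were tested on simulated data.

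Per-library values were given for MTA1, the 2 tested members with the highest FPKM in each family, and, of members that passed, the 8 with the highest and the 8 with the lowest log2 fold change, at a mean of 1 CPM or more. For SEMA3C and SEMA3F these values are only plotted, and the text gives group means. Of the partner list, up to 4 genes of each group with the smallest p were taken, and 1 of these and 3 cell type markers are not reported here. FES, the per-library values of EFNB2, the printed promoters and the motifs were chosen after values were seen. The members and lists were chosen with earlier results of these data known. Alternatives were DESeq2 1.42.0, limma 3.58.1 on log2(FPKM + 0.1) and log2(FPKM + 1), other scalings and filters, a replicate block, and leaving out each library.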

Additional observations from a re-analysis of the deposited data

How the results depend on the processing

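Of the 27 members that passed, 22 kept their call and direction under every alternative that gave them a value, 20 of them higher and 2 lower. The exceptions were EFNA4, EFNA5, SEMA3F, SEMA6B and PLXNB1. The number of receptors that rose was 13 under each alternative except limma on genes with a mean FPKM of 0.5 or more. With that filter, which left 24 members and 12 receptors, 17 members passed (7 at 1.5-fold or more), 9 receptors, none lower, and 8 ligands, none lower, and 20 partner genes. In limma on log2(FPKM + 1), 2 members passed at 1.5-fold or more, since a pseudocount of 1 shrinks low genes, and no receptor passed as lower, with either pseudocount (0 in both).

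The median of receptors was 0.44 in limma on log2(FPKM + 0.1), 0.24 with a pseudocount of 1 and 0.44 with the filter. The median of ligands was 0.35 with scaling by library size only, 0.065 with a pseudocount of 1 and 0.32 with the filter. With single libraries left out, the medians ran from 0.41 to 0.55 for receptors and from 0.22 to 0.35 for ligands, and 25 to 30 members, 13 to 14 receptors (0 to 1 of them lower) and 12 to 16 ligands passed. The causes were not tested.

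Signs reversed only for members that did not pass. The median of all tested genes itself stood at 0.069 with scaling by library size only, 0.059 on log2(FPKM + 0.1), 0.061 with the filter and 0.027 on log2(FPKM + 1), against 0.002 with TMM scaling. EFNA1 and SEMA3G under these settings are to be read against that shift. EFNA1 stood at 0.061 with scaling by library size only, at 0.059 on log2(FPKM + 0.1) with and without the filter and at 0.057 on log2(FPKM + 1), and from -0.03 to 0.019 with single libraries left out. SEMA3G stood at 0.013 with library size only, at 0.0028 with a pseudocount of 0.1 (with the filter too) and at 0.0023 with a pseudocount of 1, and from -0.15 to 0.040 with single libraries left out. With single libraries left out SEMA7A ran from -0.10 to 0.17 and EPHB3 from -0.23 to 0.041.

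Deviations of libraries with the same replicate number correlated weakly (0.094, -0.034 and 0.023 over tested genes). The labels do not say whether such libraries were handled together. Weak correlations over all tested genes, many of them with few counts, cannot decide it. With the replicate number as a block 29 members passed, against 27, with 9139 against 8954 of all tested genes, 14 receptors, 15 ligands and 33 partner genes. Depth limits 26 members that had at most 59 counts in all 6 libraries and were not tested.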
